A study of Homo sapiens with 6 samples.

Results

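The genes examined were 8 members of the SUMO conjugation machinery, SUMO2, SUMO3, SAE1, UBA2, PIAS1, PIAS2, PIAS3 and PIAS4, listed by name among 19785 coding genes, with earlier results of these data known. The question was whether SUMO-2/3 sits on the genes of its own pathway. HL-60 cells, an established human acute myeloid leukaemia line, were given water (mock), the nucleoside analogue cytosine arabinoside (Ara-C, 2 µM) or the anthracycline daunorubicin (DNR, 1 µM) for 2 h. Chromatin carrying SUMO-2/3-modified proteins was immunoprecipitated with 2 µg of antibody and sequenced (ChIP-seq). Material from 3 biological replicates was pooled before sequencing, so each condition has 1 library and 1 peak list, no difference has a replicate check, and no test or p-value is given. The series holds 6 samples, of which the 3 inputs were not analysed here. Peak lists carry no expression values, so the cell type could not be checked against marker genes.

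SUMO proteins are ubiquitin-related modifiers that are attached to lysines of other proteins by a short enzyme cascade. The E1 enzyme, a dimer of SAE1 and UBA2, activates the modifier. E3 ligases such as the PIAS proteins help its transfer to the substrate. Proteases of the SENP family remove SUMO again. Many transcription factors and chromatin regulators are substrates, which is why SUMO-2/3 can be mapped along the genome.

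The lists give only the position of each peak, which is a run of signal above a fixed value, at least 150 bp long on a grid of 50 bp in all but 1 mock peak of the genome. They hold 44265 mock, 72279 Ara-C and 33355 DNR peaks. Neither the height of a peak nor the number of reads in a library is given, so width was the only measure of strength, and differences in depth and in treatment cannot be told apart. Where a gene has no peak, no run met the threshold, and weaker signal may still be there. A TSS window reached from 2 kb upstream to 1 kb downstream of any transcription start site (TSS) of a basic coding transcript, and the gene body was the whole annotated gene.

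SUMO-2/3 peaks lay in the TSS windows of few of these genes, at shares close to those of coding genes in general, and at different positions in each list. A TSS window held a peak at 1 of 8 genes in mock-treated cells (PIAS4), at 3 of 8 under Ara-C (UBA2, PIAS2 and PIAS3) and at 1 of 8 under DNR (SAE1), beside 25.3, 30.9 and 8.43% of coding genes. SUMO2, SUMO3 and PIAS1 had none in any list. In all, 7 mock, 24 Ara-C and 7 DNR peaks lay in the windows or bodies of the 8 genes, and 0 of them overlapped a peak of another list. Overlap was the exception at coding genes too, at 2.16 to 17.7% of peaks according to the pair of lists. Per length of gene body, the Ara-C peaks were denser than at coding genes, at 4.84 against 2.89 per 100 kb. The exact Poisson interval, which treats peaks as independent, lay above 2.89 only with PIAS2 included.

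The sequences under TSS-window peaks of PIAS4, UBA2 and PIAS2 are shown first, because such peaks are the stretches on which the answer rests. All are hg19 sequence, 5′ to 3′ on the strand of the gene. Capitals mark the E-box CAGCTG. Not every window peak is printed, and the PIAS3 peak over the TSS, which spans untranslated and coding sequence of the first exon, is given by position only. The PIAS2 peak shown is the one nearest to the TSS.
PIAS4, mock, chr19:4007301-4007500, plus strand: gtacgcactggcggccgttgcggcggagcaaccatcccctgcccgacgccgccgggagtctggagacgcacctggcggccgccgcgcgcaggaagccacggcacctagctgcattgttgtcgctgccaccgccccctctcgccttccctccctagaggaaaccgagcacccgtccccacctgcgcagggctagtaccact
UBA2, Ara-C, chr19:34948951-34949100, plus strand: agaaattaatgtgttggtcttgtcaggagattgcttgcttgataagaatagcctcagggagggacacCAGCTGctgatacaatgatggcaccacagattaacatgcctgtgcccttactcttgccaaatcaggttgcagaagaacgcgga
PIAS2, Ara-C, chr18:44497751-44498000, minus strand: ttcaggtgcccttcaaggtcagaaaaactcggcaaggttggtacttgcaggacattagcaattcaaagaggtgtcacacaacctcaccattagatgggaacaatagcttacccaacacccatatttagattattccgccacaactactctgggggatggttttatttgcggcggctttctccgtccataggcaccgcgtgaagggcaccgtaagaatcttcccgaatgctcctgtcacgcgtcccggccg
Their GC content was 70.5% for PIAS4, 46.7% for UBA2 and 50.8% for PIAS2, and that of the PIAS3 peak over the TSS was 72%.

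The modifier genes held 1 peak in all, and both are short, at 17.4 kb for SUMO2 and 13.2 kb for SUMO3. Coding genes together had 1.79 mock, 2.89 Ara-C and 1.27 DNR peaks per 100 kb of body. Genes of matched length were not compared, so a part of gene length in these counts was not tested. SUMO2 (ENSG00000188612, chr17:73161681-73179054, minus strand) encodes one of the modifiers that the antibody recognises. It had 0 mock peaks, 1 Ara-C peak and 0 DNR peaks in its window and body. The Ara-C peak was 200 bp wide, at chr17:73168001-73168200, in an intron 11 kb into the gene. The nearest peak to a SUMO2 TSS lay 23.2 kb away in mock, 5.75 kb away under Ara-C and 42 kb away under DNR.

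SUMO3 (ENSG00000184900, chr21:46225532-46238694, minus strand) encodes the near-identical partner of SUMO-2. It had 0 peaks in window and body in every list, the only one of the 8 genes without any. The nearest peak to a TSS lay 17.6 kb away in mock, 4.86 kb away under Ara-C and 7.96 kb away under DNR. Read coverage there is unknown. Of the 50-base stretches of the SUMO3 window, 0% occur more than 1 time in the genome, and of those of its body 1.17%. In the SUMO2 window this share was 5.68%, and in its body 12.3%.

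Both subunits of the E1 enzyme had a TSS-window peak, each under 1 drug. SAE1 (ENSG00000142230, chr19:47616531-47713893, plus strand), the smaller subunit, had 1 mock peak, 3 Ara-C peaks and 2 DNR peaks. The DNR peak in its window, chr19:47633501-47633700, was 200 bp wide and ended 386 bp upstream of the nearest coding TSS. The annotated gene begins further upstream, with transcripts that are not in the basic coding set, so this peak also counts as intronic and as a body peak.

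The other SAE1 peaks lay deep in its introns. The mock peak, chr19:47680001-47680250, was 250 bp wide and 46 kb from the canonical TSS. The Ara-C peaks were 150, 200 and 150 bp wide, at 27.2, 53 and 77.5 kb. The second DNR peak, 200 bp wide at 27.9 kb, was separated by 500 bp from the first Ara-C peak, and the mock peak was 6750 bp from the nearest Ara-C peak. The 3 lists therefore placed their SAE1 peaks at different sites.

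UBA2 (ENSG00000126261, chr19:34919257-34962156, plus strand), the catalytic E1 subunit, had 0 mock, 3 Ara-C and 0 DNR peaks. All 3 Ara-C peaks were 150 bp wide, the shortest run that can be called, and lay in introns at 16.1, 17.8 and 29.7 kb from the canonical TSS. The last of them lay 519 bp upstream of an internal coding TSS and counted as a window peak through that site alone. From the canonical TSS of UBA2, the nearest peak was 16015 bp away under Ara-C, 58315 bp away in mock and 68815 bp away under DNR.

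**Figure D1:**
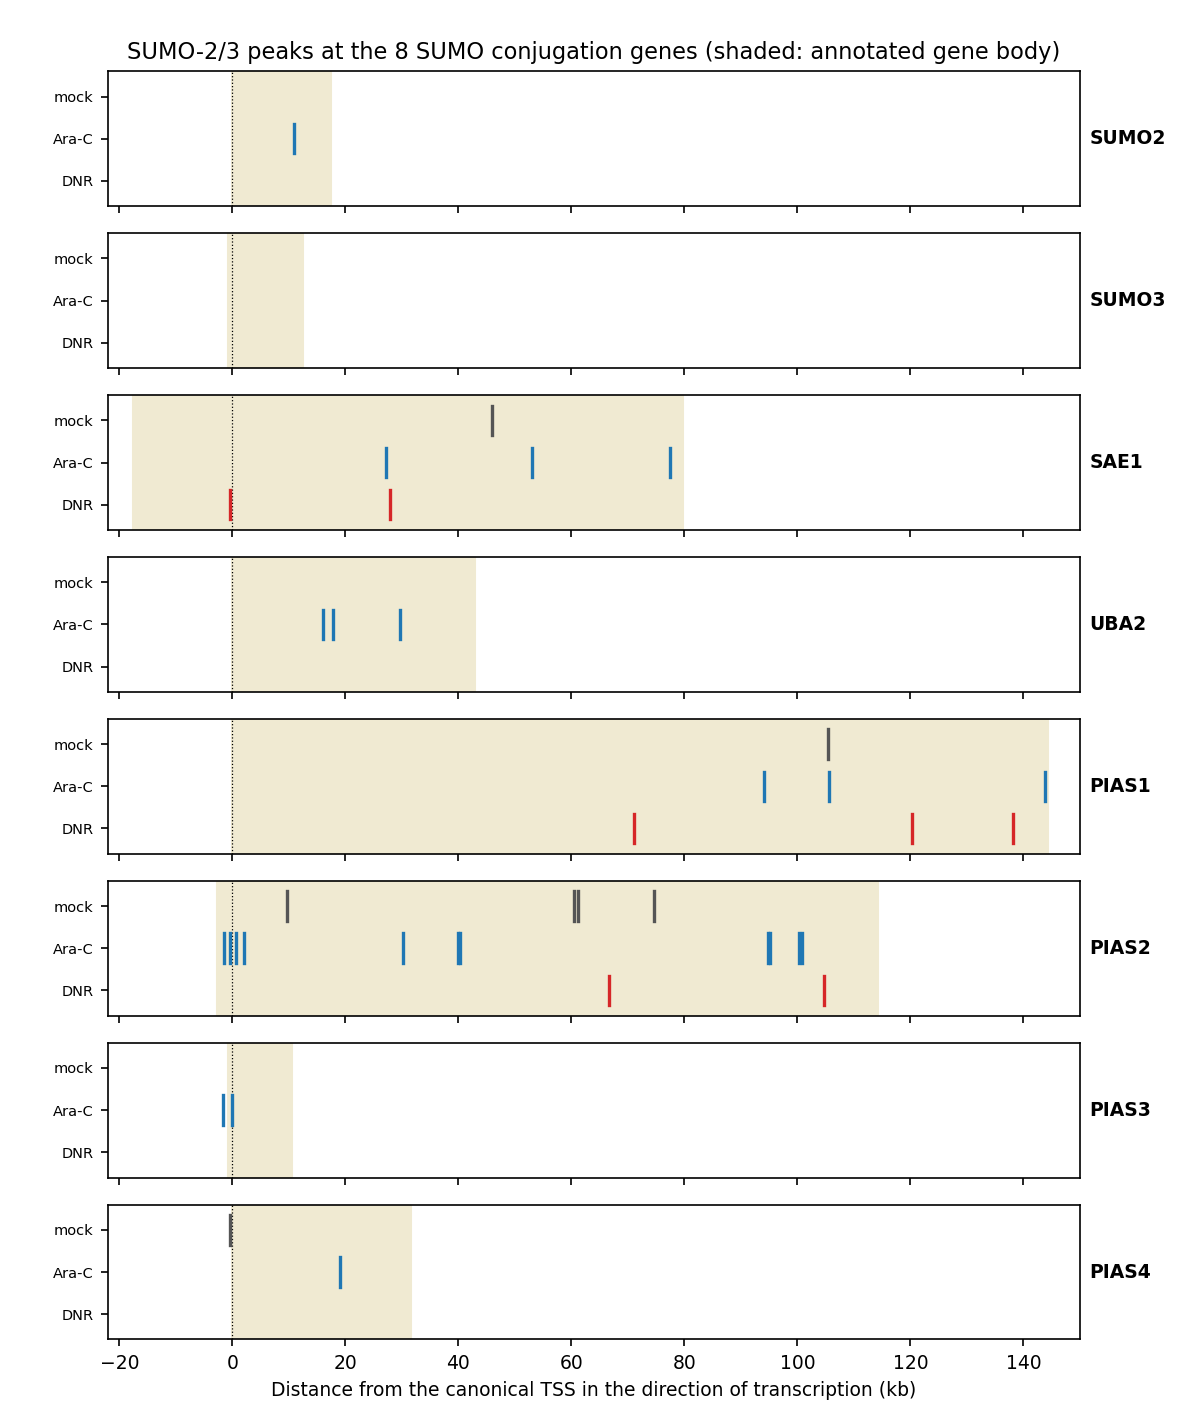
Peaks along the 8 genes, one panel per gene, by distance of the peak midpoint from the canonical TSS in kb (x axis, in the direction of transcription) and by list (rows: mock in grey, Ara-C in blue, DNR in red). Each tick is 1 peak, drawn at a fixed thickness that does not show its width, and shading marks the annotated gene; PIAS2 holds 17 of the 38 ticks, the SUMO3 panel is empty, and no tick of one list overlaps a peak of another.

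Among the E3 ligases, the 4 PIAS genes showed 4 different patterns. PIAS proteins were first known as inhibitors of activated STAT factors and act as SUMO ligases for many transcription regulators. PIAS1 (ENSG00000033800, chr15:68346647-68490941, plus strand) had 1 mock, 3 Ara-C and 3 DNR peaks, all in the body. Its window was empty in every list. Of the 50-base stretches there, 0% occur more than 1 time in the genome, which does not show read coverage. The nearest mock peak to a PIAS1 TSS lay 105 kb inside the gene, and the nearest DNR peak 70.7 kb inside it. The nearest Ara-C peak, at 8.15 kb, was outside the gene.

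The mock peak of PIAS1, chr15:68451951-68452100, and its second Ara-C peak, chr15:68452151-68452300, both 150 bp wide, were 50 bp apart, which is 1 bin of the grid and the closest approach of the lists at the 8 genes. They did not overlap and so were not counted as found again. The other Ara-C peaks were 150 and 200 bp wide, at 94 and 144 kb. The last of these also lay within CALML4, a neighbouring gene for a calmodulin-like protein, and held the ETS motif CAGGAAGT. With TSSs of all CALML4 transcripts taken, it was in a TSS window of that gene too. The DNR peaks were each 200 bp wide, at 71, 120 and 138 kb, and the last lay in an untranslated part of an exon, within CALML4 as well.

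PIAS2 (ENSG00000078043, chr18:44383181-44500123, minus strand) was the gene with the most peaks in the mock and Ara-C lists, with 4 mock, 11 Ara-C and 2 DNR peaks. The mock peaks were 150, 200, 400 and 200 bp wide, and the one of 400 bp, at chr18:44436751-44437150, was the widest at any of the 8 genes. All 4 lay in the body, between 9.67 and 74.6 kb from the canonical TSS. The DNR peaks were both 150 bp wide, at 66.7 and 105 kb. None of these was near the PIAS2 promoter.

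Under Ara-C, 3 peaks lay in the PIAS2 TSS window, with a summed width of 800 bp. They were 350 bp wide at chr18:44496651-44497000, 250 bp wide at chr18:44497751-44498000 and 200 bp wide at chr18:44498801-44499000, on either side of the TSS, and none covered it. Another peak of 250 bp, at chr18:44495251-44495500, lay 2.09 kb downstream, held the YY1 motif AAGATGGC and was also in a KATNAL2 window. Of the 3 window peaks, 2, those of 350 and 250 bp, also lay in the TSS window of KATNAL2, a katanin-related gene that shares this promoter region, so they cannot be assigned to PIAS2 rather than to KATNAL2. The one of 200 bp lay within the KATNAL2 gene, outside the windows of its basic coding transcripts but inside a window when TSSs of all its transcripts were taken. Leaving out peaks shared by basic coding windows, a choice made after the data had been seen, left 3 of 8 genes with an Ara-C window peak. With TSSs of all KATNAL2 transcripts, all 3 peaks were shared and PIAS2 kept none of its own.

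PIAS2 lies on a chromosome with many peaks in each list. Chromosome 18 held 36.5 mock, 56.3 Ara-C and 34.1 DNR peaks per Mb, against medians over the 22 autosomes of 12.8, 21.8 and 10.2. The part of this density in the PIAS2 counts was not tested. Over its body PIAS2 had 3.42 mock peaks per 100 kb (exact 95% Poisson interval 0.932 to 8.76), 9.41 Ara-C peaks (4.7 to 16.8) and 1.71 DNR peaks (0.207 to 6.18). These intervals cover counting error only, and the Ara-C and mock intervals overlap.

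PIAS3 (ENSG00000131788, chr1:145575233-145586546, plus strand) had 0 mock, 2 Ara-C and 0 DNR peaks. The Ara-C peak at chr1:145575901-145576100 was 200 bp wide and the only one at the 8 genes that covered a TSS. It reached into the first coding exon, had a GC content of 72% and held the YY1 motif AAGATGGC. The second, 250 bp wide at chr1:145574151-145574400, ended 1588 bp upstream of the TSS. No other coding gene had its TSS window at either peak. The nearest mock peak to a PIAS3 TSS was 13.1 kb away and the nearest DNR peak 34.6 kb away.

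PIAS4 (ENSG00000105229, chr19:4007734-4039384, plus strand) had 1 mock, 1 Ara-C and 0 DNR peaks. The mock peak, chr19:4007301-4007500, was 200 bp wide and ended 234 bp upstream of the only coding TSS. It was the only mock peak in a TSS window of the 8 genes. The Ara-C peak was 150 bp wide, in an intron 19 kb into the gene and 19150 bp from the mock peak. The nearest DNR peak to the TSS was 30.6 kb away. At PIAS4 the window was thus marked in the mock list, and at UBA2, PIAS2 and PIAS3 in the Ara-C list, with no gene marked in both.

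**Figure D2:**
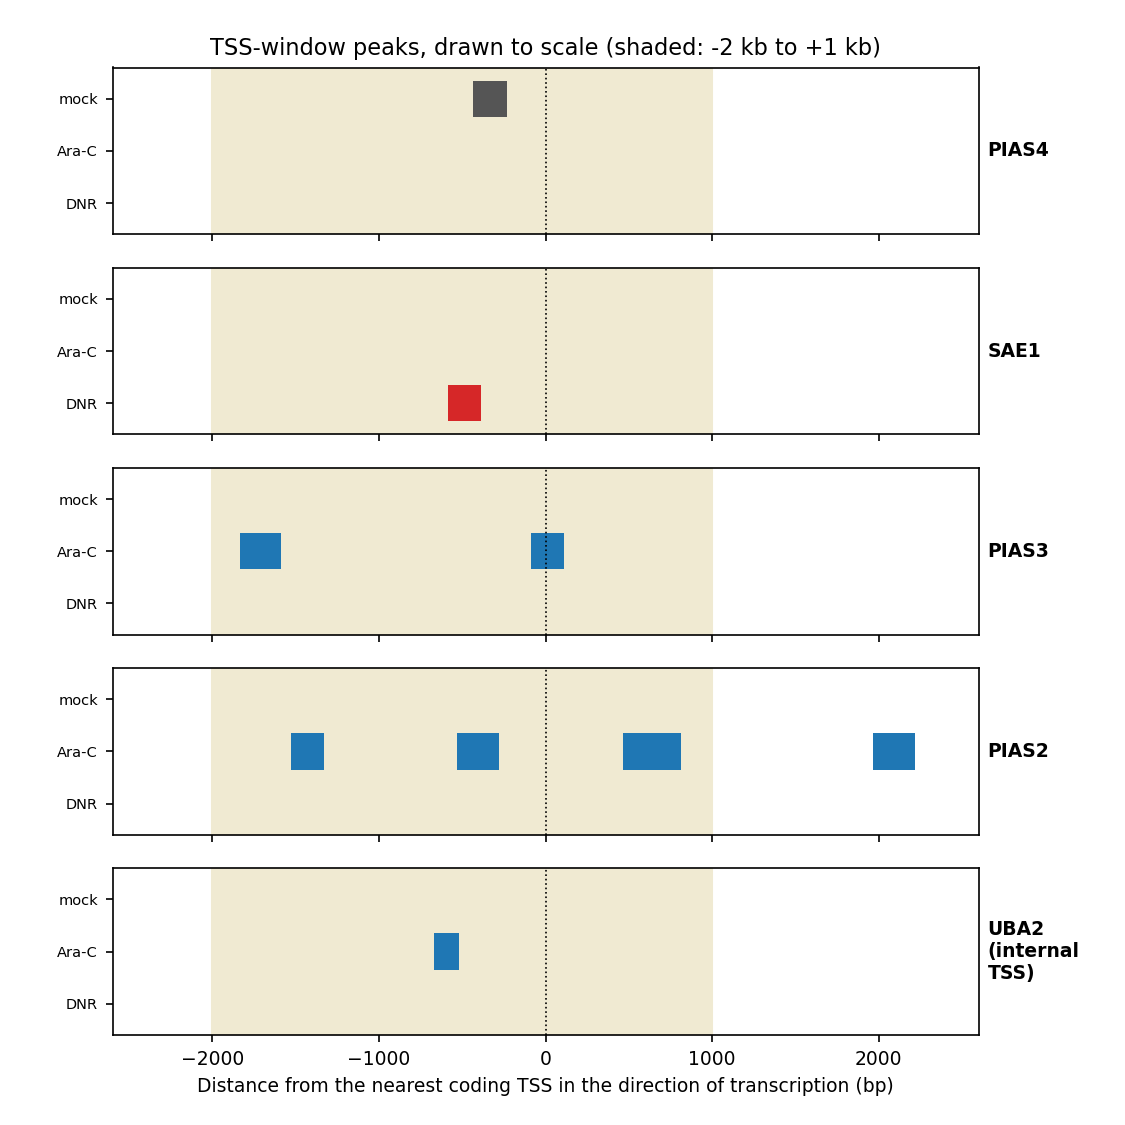
Peaks within 2.6 kb of the nearest coding TSS at the 5 genes with a TSS-window peak, drawn to scale in bp (x axis, in the direction of transcription; rows are the lists, and shading marks the window from 2 kb upstream to 1 kb downstream). PIAS4 has a mock box, SAE1 a DNR box and PIAS3, PIAS2 and UBA2 Ara-C boxes; the rightmost PIAS2 box lies outside the window, and the UBA2 site is an internal one.

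These numbers were close to what coding genes in general show. A TSS-window peak was present at 25.3% of the 19785 coding genes in mock (95% Wilson interval 24.7 to 25.9), 30.9% under Ara-C (30.2 to 31.5) and 8.43% under DNR (8.05 to 8.83). For 8 genes, these shares would come to 2.02, 2.47 and 0.674 genes, beside the 1, 3 and 1 that were found. No window peak in any list was found at 56.1% of coding genes, and at 3 of the 8. A window peak in 2 or more lists was found at 18.2% of coding genes, which would come to 1.46 of 8, and at 0 of the 8. With 8 genes, departures of this size are not a result about the SUMO pathway.

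Gene bodies gave a similar picture in mock and DNR. A body peak was present at 3 of 8 genes in mock and at 3 of 8 under DNR, the same genes in both lists (SAE1, PIAS1 and PIAS2), against 47.8% and 35.9% of coding genes. These 3 are also the longest of the 8, at 97.4, 144 and 117 kb. Under Ara-C 7 of the 8 genes, all but SUMO3, had a body peak, against 58.2% of coding genes, which would come to 4.66 of 8. Differences in gene length enter these shares, so peaks per length were compared as well.

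Per 100 kb of gene body, the 8 genes had 1.26 mock peaks (exact Poisson interval 0.464 to 2.75), 4.84 Ara-C peaks (3.07 to 7.27) and 1.47 DNR peaks (0.592 to 3.04). Coding genes together had 1.79, 2.89 and 1.27. The Ara-C interval lay above the value for coding genes, while the mock and DNR intervals included theirs. Without PIAS2, left out after the data had been seen, the Ara-C value was 3.35 peaks per 100 kb (1.73 to 5.85), an interval that included 2.89. The mock value without PIAS2 was 0.559, and the DNR value 1.4. The Ara-C interval thus lay above the value for coding genes with PIAS2 included, and not without PIAS2. These intervals treat peaks as independent, although several PIAS2 Ara-C peaks lay close together, such as chr18:44402301-44402450 and chr18:44402651-44402800.

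**Figure D3:**
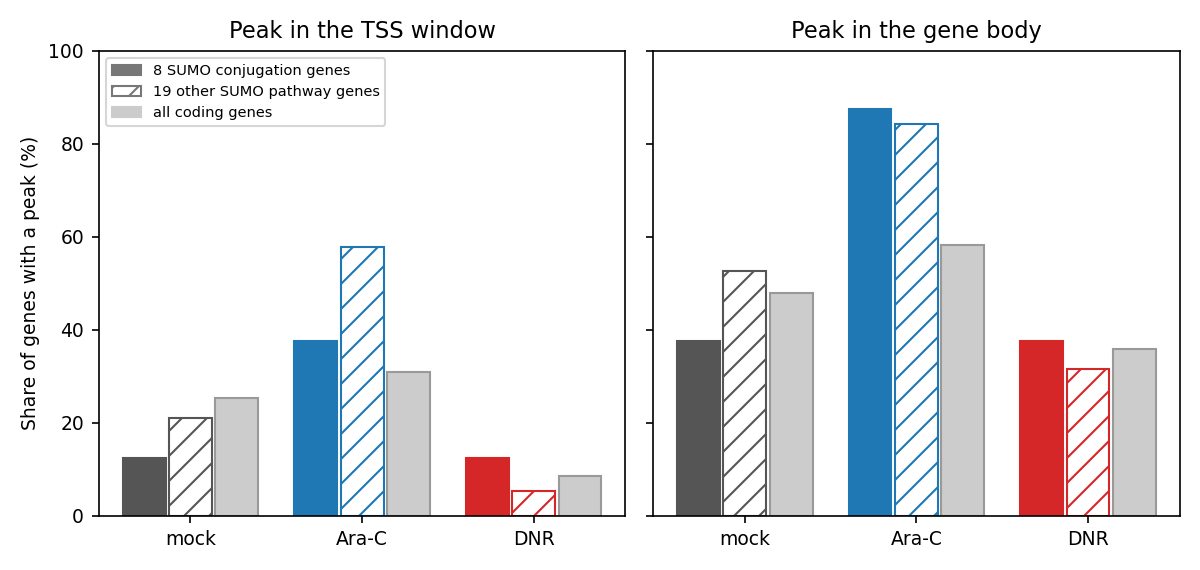
Share of genes in percent (y axis, from 0) with a peak in the TSS window (left) or gene body (right) in each list, for the 8 SUMO conjugation genes (filled bars), 19 other SUMO pathway genes (hatched) and all coding genes (light grey), with no error bars because each list comes from 1 library. In the window panel the 8 genes stand at 1, 3 and 1 genes beside 25.3, 30.9 and 8.43% of coding genes.

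Distances from the TSS were compared as well. The median distance from a TSS to the nearest peak was 20.4 kb in mock, 5.3 kb under Ara-C and 36.5 kb under DNR over the 8 genes. Over all coding genes it was 12.1, 6.47 and 26.7 kb. The Ara-C list, the longest, was thus nearest to both sets, and the DNR list, the shortest, was farthest from both.

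**Figure D4:**
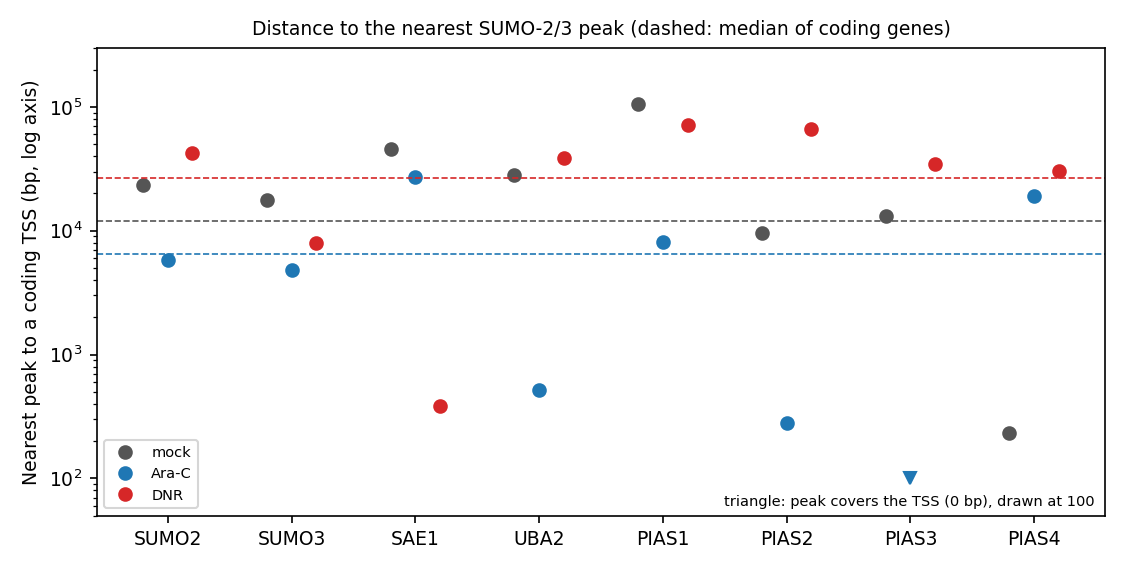
Distance in bp (y axis, log scale) from the nearest coding TSS of each of the 8 genes to the nearest peak of each list (points), with the medians of all coding genes as dashed lines in the colour of the list. Points below 1000 bp are 1 mock (PIAS4), 3 Ara-C (UBA2, PIAS2 and PIAS3, the last with a peak over its TSS at 0 bp) and 1 DNR point (SAE1).

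Overlap between lists was looked for at every peak of the 8 genes. Of 7 mock peaks, 0 overlapped an Ara-C peak and 0 a DNR peak. Among all mock peaks at coding genes, 17.7% overlapped an Ara-C peak and 2.85% a DNR peak. Of 24 Ara-C peaks, 0 overlapped a mock peak and 0 a DNR peak, where 11.0% and 2.16% of Ara-C peaks at coding genes did. Of 7 DNR peaks, 0 overlapped a mock peak and 0 an Ara-C peak, where 4.09% and 4.95% did. The peaks at these genes were thus sites called in 1 list each, and overlap was the exception at coding genes as well.

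Most widths were close to the list medians, and the widest peaks of the lists were not at these genes. Median width at the 8 genes was 200 bp in mock, 150 bp under Ara-C and 200 bp under DNR, with maxima of 400, 350 and 200 bp, and the median of each whole list was 150 bp. Peaks of 150 bp, the shortest run, numbered 2 of 7, 13 of 24 and 2 of 7. In the whole lists, such peaks made up 52.1, 51.5 and 56.3%. The coding TSSs or bodies of other genes held peaks of up to 2150 bp in mock, 4050 bp under Ara-C and 1850 bp under DNR.

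Few of the motifs searched occurred in these peaks. The CTCF core motif, present in 2.55% of mock, 1.56% of Ara-C and 0.555% of DNR peaks, was in 0 of the 38. The E-box CAGCTG was in 1 mock, 1 Ara-C and 1 DNR peak, where 10.9, 10.3 and 9.22% of each list held it, and the mock one was the PIAS2 peak of 400 bp. The ETS motif CAGGAAGT was in 1 Ara-C peak, against 1.70% of that list. The YY1 motif AAGATGGC was in 3 Ara-C peaks, at SAE1, PIAS2 and PIAS3, against 1.06% of that list. The other ETS motif CCGGAAGT, the NRF1 motif GCGCATGCG, the CRE TGACGTCA and the GC box GGGGCGGGG were in none of the 38. Both strands were searched. The CTCF, E-box and CAGGAAGT motifs were taken from a motif search made on these mock peaks, so their presence is not independent evidence, and a match is a description of letters and not a binding site.

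The pattern of PIAS2, the member with the largest summed TSS-window width, was not particular to it. Its widths of 0 bp in mock, 800 bp under Ara-C and 0 bp under DNR were shared exactly by 5 other coding genes, CBX3, FUT7, NAPG, UNC13D and ZBTB5, with a summed difference over the 3 lists of 0 bp.

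The rest of the SUMO pathway, 19 genes that include further E3 ligases, SUMO proteases and SUMO-targeted ubiquitin ligases, had most of its TSS-window peaks under Ara-C. A window peak was present at 4 of 19 genes in mock, 11 of 19 under Ara-C and 1 of 19 under DNR, beside 25.3, 30.9 and 8.43% of coding genes. The mock and DNR counts were near those shares. The mock genes were the proteases SENP1, USPL1 and DESI2 and the ubiquitin ligase RNF4, which recognises SUMO chains. SENP1 had a peak of 500 bp over its TSS in mock and one of 450 bp under Ara-C, and these overlapped. USPL1 had one of 700 bp in mock and one of 750 bp under Ara-C, which overlapped as well. Both promoters are shared with a neighbouring gene, PFKM for SENP1 and HMGB1 for USPL1.

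At RNF4 the mock and Ara-C peaks, both 150 bp wide, abutted at the TSS without sharing a base. Under Ara-C the genes with a window peak included TOPORS, SENP1, SENP3, SENP7, USPL1, DESI1, RNF4 and RNF111. Those of SENP3 and SENP7 were each 200 bp wide, with their nearest edge 936 and 378 bp from a TSS, and that of RNF111 was 200 bp wide with its edge at 364 bp. None of these genes had a window peak under DNR. Some of these Ara-C peaks also lay in TSS windows of neighbouring coding genes, with TSSs of all transcripts taken. Both TOPORS peaks lay in that of ENSG00000288684, and the nearer in that of SMIM27 too. The DESI1 peak lay in that of XRCC6.

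Overlap among these other genes was near the background. Without NSMCE2, an E3 ligase gene on chromosome 8 that alone held 84 mock, 91 Ara-C and 66 DNR peaks, 4 of 17 mock peaks overlapped an Ara-C peak and 1 of 17 a DNR peak, where 17.7% and 2.85% of mock peaks at coding genes did. Over all 19 genes, body density was 7.2 peaks per 100 kb in mock (exact Poisson interval 5.86 to 8.75). It was 9.05 under Ara-C (7.55 to 10.8) and 5.35 under DNR (4.2 to 6.7), each interval above the value for coding genes. Leaving out NSMCE2 was not planned beforehand. Without it, body density was 1.51 in mock (0.878 to 2.41), 3.19 under Ara-C (2.24 to 4.42) and 0.798 under DNR (0.365 to 1.52). Each interval without NSMCE2 included the value for coding genes and overlapped the interval of the 8 conjugation genes.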

How the data were processed

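SUMO-2/3 ChIP-seq was analysed in HL-60 cells, 1 pooled library for each of 3 conditions. The deposited values are peak positions, with no count, signal or score. The authors aligned single-end reads to hg19 with CASAVA 1.8.2, kept uniquely placed reads, extended them to 210 bp (220 bp for DNR), limited pile-ups at 5 (mock) or 4 reads, counted them in bins of 50 bp, scaled the libraries and subtracted input. They called runs above 32 joined across gaps up to 100 bp and longer than 100 bp. Depth per library is unknown from these lists.

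Genes came from GENCODE 44 lifted to GRCh37, the assembly under hg19, with 55809 TSSs in 19785 coding genes. Positions are 1-based. Peaks sharing at least 1 bp counted as overlapping. Windows were checked with bedtools 2.31.1 in 3 lists, with 0 differences, and the overlap steps were tested on simulated data. Sequences and exact matches of 50-base stretches came from the GRCh37 genome. Of the member peaks, 1 of 24 Ara-C and none of the others held a stretch with a second place. Python 3.11.15, numpy 2.4.6, scipy 1.17.1 and matplotlib 3.10.9 were used. All 8 members are named, as are other pathway genes (some are not reported here) with a TSS-window peak and genes that share a member's peak. The members, the list of 19 genes and the motifs were chosen with earlier results of these data known.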

Additional observations from a re-analysis of the deposited data

How the results depend on the processing

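No paired analysis was possible because the 3 conditions are single libraries that no test compared. Of 204 values recomputed under 10 alternative settings, 186 stayed as they were or, for counts, within 1.5 times, and 18 moved. Values of 0 could not move under a stricter setting. Within that range, Ara-C window peaks were at 2 of 8 genes with only the most 5′ coding TSS or with peaks of at least 200 bp. They were at 4 of 8 with the window from 5 kb upstream. With the TSSs of every transcript they were at 4 of 8 and at 15 of 19 other pathway genes, beside 39.2% of coding genes. The cause was not tested unless the setting itself shows it. A window starting 1 kb upstream left the Ara-C width at 600 bp for PIAS2 and 200 bp for PIAS3, while one starting 5 kb upstream gave SUMO3 150 bp under Ara-C and the other pathway genes 2 DNR genes. Using only the most 5′ coding TSS took the UBA2 width under Ara-C to 0 bp and the other pathway genes under DNR to 0. Using the TSSs of every annotated transcript gave 2 of 8 genes in mock, 2 of 8 under DNR and 9 of 19 other pathway genes in mock, where 31.7% of coding genes in mock and 15% under DNR had such a peak under that setting, with widths of 200 bp for PIAS2 in mock, 150 bp for PIAS4 under Ara-C and 400 bp for PIAS1 under DNR. Requiring at least 200 bp left 11 Ara-C peaks at the 8 genes, 0 bp for UBA2 under Ara-C and 2 other pathway genes in mock. Counting neighbours up to 500 bp away gave 1 mock peak found again under Ara-C, at PIAS1. Without PIAS2, 3 mock and 13 Ara-C peaks remained. Placing peaks by midpoint moved none. Requiring 50% of a mock peak to be covered could not change the overlap counts, which were already 0 at 1 bp. With 1 library per condition, no read numbers and 8 genes, a missing peak shows only that no run met the threshold, and differences between lists cannot be separated from depth or scaling.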
